A study of Mus with 3 samples.

Results

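Genes of gut homing and tissue residence were followed in T cells from MC38 tumors, which grow from a transplanted mouse colon adenocarcinoma line. The 7 genes, chosen by name out of the 32285 genes of the count matrix, were Ccr9, Itga4, Itgb7, Itgae, Itga1, Itgb1 and Cd69, and all 7 were in the matrix. On day 16 after tumor injection, tumors came from 3 genotypes: WT, RARα-KO (KO), where distal Lck-Cre drives deletion of floxed Rara (Rara fl/fl) in T cells, and RARα-TG (TG), where the human CD2 promoter drives a Rara transgene (hCD2-Rara). The WT controls of the study were C57BL/6 or dLck-Cre mice, and which of them gave this tumor, the number of mice behind each genotype and their age were not given in the sources used here. Tumor cells were marked with 1 hashtag antibody per genotype, after which 30000 CD45.2+ CD3+ T cells were sorted, mixed with 10000 unsorted cells of the same tumors and pooled over genotypes into 1 droplet run for 5′ RNA, T cell receptor (TCR) and hashtag sequencing.

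Retinoic acid, acting through receptors such as RARα, is known to give T cells a gut address: it induces CCR9, the receptor for the small-intestinal chemokine CCL25, and the integrin α4β7, which binds MAdCAM-1 on gut venules. The α4 chain (Itga4) also pairs with β1 (Itgb1) to bind VCAM-1 and fibronectin, while β7 (Itgb7) also pairs with αE (Itgae, CD103) to bind E-cadherin on epithelium. The α1 chain (Itga1, CD49a) pairs with β1 to bind collagen, and CD69 holds cells in tissue by taking the egress receptor S1PR1 off the surface. T cells that stay in epithelium and in tumors often carry CD103, CD49a and CD69. The comparisons asked how these genes stood in T cells with RARα deleted or overexpressed.

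In the annotation of GRCm38 (mm10) the genes lie on 7 chromosomes: Ccr9 (ENSMUSG00000029530) at chr9:123767211-123783457, Itga4 (ENSMUSG00000027009) at chr2:79255426-79333114, Itgb7 (ENSMUSG00000001281) at chr15:102215994-102233405, Itgae (ENSMUSG00000005947) at chr11:73090505-73147449, Itga1 (ENSMUSG00000042284) at chr13:114958079-115101964, Itgb1 (ENSMUSG00000025809) at chr8:128685654-128733579 and Cd69 (ENSMUSG00000030156) at chr6:129267324-129275375. All are protein-coding genes, and a UMI (1 counted RNA molecule) could come from any of their exons.

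The matrix held 46394322 gene UMIs, of which 96.4% lay in 5585 called cells with a median of 4823 UMIs. Hashtags gave 1 genotype to 1927 WT, 2103 KO and 895 TG cells. CTLs (Cd8a and no Cd4 UMI within T cell clusters) numbered 843 in WT, 1171 in KO and 113 in TG. CD4 T cells without a Foxp3 UMI numbered 96, 165 and 111, and those with a Foxp3 UMI, the mark of regulatory T cells, 120, 79 and 150 in the same order. Median UMIs per CTL were 5667, 5620 and 4680. The labels call the tissue spleen and the cells activated naive CD8 T cells, whereas the protocol describes tumor cells, and the cells held Foxp3+ CD4 T cells, macrophages and 418 cells with MC38 or stromal markers, so the protocol was followed. Those markers were mainly Sparc, Col3a1 and Gsn (32424, 22681 and 19096 UMIs over the 547 cells of the cluster). The epithelial markers Epcam, Krt8, Krt18 and Krt19 had only 3, 2, 0 and 4 UMIs there.

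Of 1725 cells in clonotypes of 5 or more, 3 carried another hashtag than the rest of their clonotype. Each genotype was 1 sample, so no test of a genotype difference was possible and no p-value is given. Levels are CPM, the summed UMIs of a gene in a group of cells scaled to a common total of UMIs, with exact Poisson 95% intervals, and ratios are log2 ratios of CPM with exact 95% intervals. These intervals cover counting error only and not the spread between mice. Neutrophil markers were at 0 in all 9 T cell groups, and summed macrophage markers stood at 2.27 to 17.7 CPM and MC38 or stromal markers at 19.8 to 89.8 CPM, highest for both in TG Foxp3+ cells. Of the lists, 1 to 6 of 6 macrophage markers and 3 to 7 of 9 MC38 or stromal markers had a UMI in a group. The γδ T cell genes Trdc and Tcrg-C1 together had 19 UMIs (31.5 CPM) in TG CTLs against 0.535 CPM in WT and 0.124 CPM in KO. Their part in the values below was not tested.

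Rara itself stood at 85.3 CPM in WT, 78.7 in KO and 191 in TG CTLs. The KO line lacks only an exon, so Rara UMIs do not check that label. TG cells also stood above WT in both CD4 classes, with Rara at 227 against 79.6 CPM without Foxp3 and 365 against 95.1 CPM with it. Other genes also set the KO cells apart: Trim12a had 151 UMIs in WT, 20 in TG and 0 in KO CTLs, and Rpl29 stood at 3174, 3075 and 322 CPM. Both held in the CD4 classes too, where Trim12a was again at 0 in KO. How far such differences between the lines bear on the values below was not tested.

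**Figure D1:**
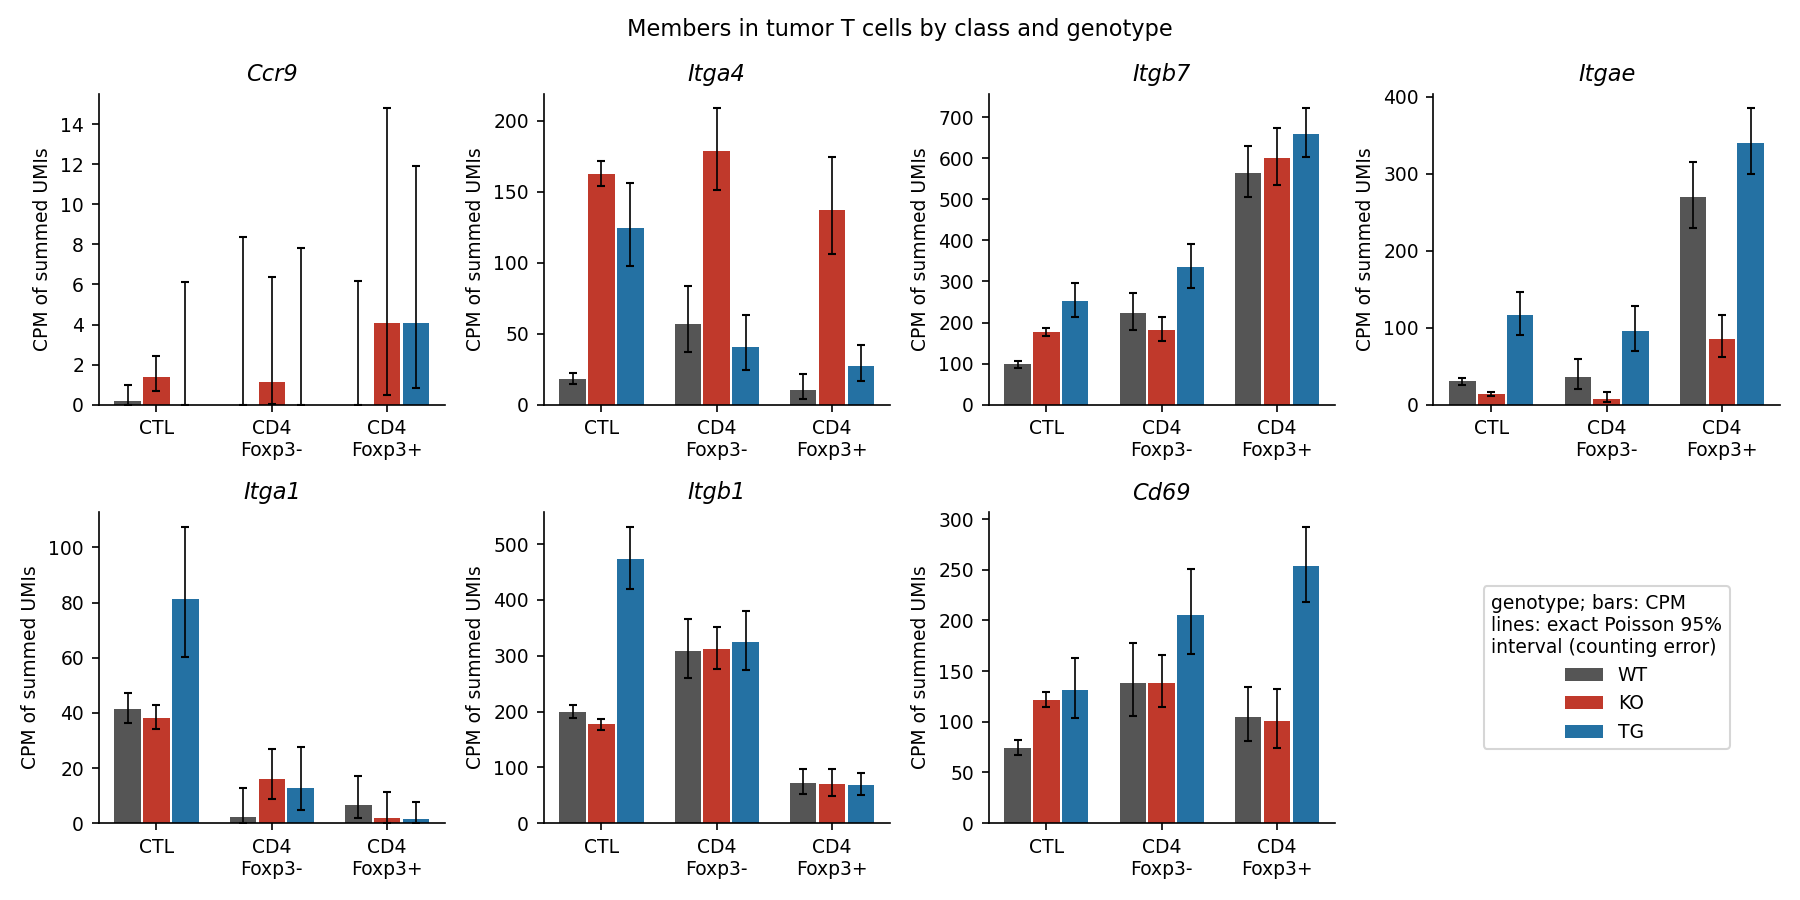
CPM of each gene (y axis, linear, 1 panel per gene with its own scale) in CTLs, Foxp3- and Foxp3+ CD4 T cells (x axis) of WT (grey), KO (red) and TG (blue); bars are CPM of summed UMIs and lines exact Poisson 95% intervals. Itga4 was highest in KO in each class (162, 178 and 137 CPM), and Itgae was lowest there (13.8, 8.01 and 86.0 CPM).

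Ccr9, the gut chemokine receptor that retinoic acid is best known to induce, was nearly silent in these tumors. Its 18 UMIs over the 2848 T cells of the 3 classes were spread as 1, 11 and 0 UMIs in WT, KO and TG CTLs, 0, 1 and 0 in Foxp3- CD4 T cells and 0, 2 and 3 in Foxp3+ CD4 T cells. The 11 UMIs in KO CTLs came from 3 cells, and 9 of them lay in clonotypes of 1 cell. Against 1 UMI in WT this was a log2 ratio of 2.93 (0.15 to 8.36), an interval that takes UMIs of the same cell as independent. Counted by cells it was 3 of 1171 in KO (0.256%, 0.0529 to 0.747) and 1 of 843 in WT (0.119%, 0.0030 to 0.659). These intervals overlap, so neither the size nor the direction of a difference is determined. In TG CTLs a count of 0 allows a level of up to 4.98 CPM, so that a level like that of KO (1.36 CPM) was not detectable there.

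Itga4, the α4 chain, showed the widest difference of the 6 members kept between KO and WT CTLs. In CTLs it stood at 18.2 CPM in WT (14.8 to 22.1), 162 CPM in KO (154 to 171) and 124 CPM in TG (97.9 to 156). KO CTLs were thus 8.94-fold above WT (log2 ratio 3.16, 2.87 to 3.46) and TG CTLs 6.85-fold above it (2.78, 2.33 to 3.22), and neither interval reached down to the WT level. With each clonotype weighted equally the log2 ratios were 1.62 and 1.27. Over all CTLs the 2 opposite changes of RARα therefore stood on the same side of WT for this gene. Within the cluster led by S1pr1 and Tcf7, TG CTLs did not stand above WT (log2 ratio -0.26, -1.08 to 0.56). That cluster held 52.2% of TG and 9.85% of WT CTLs. In CD4 T cells without Foxp3 the order was another: 56.8 CPM in WT, 178 in KO and 40.3 in TG, with log2 ratios to WT of 1.65 (1.04 to 2.32, or 2.40 with clonotypes weighted equally) and -0.50 (-1.44 to 0.42). Among Foxp3+ cells WT had 6 UMIs (10.0 CPM), KO 67 UMIs (137 CPM) and TG 20 UMIs (27.2 CPM), or 3.78 (2.58 to 5.27) and 1.44 (0.08 to 3.05). KO stood above WT in every class, while TG did so in CTLs, did not in Foxp3- cells, and in Foxp3+ cells had an interval that just missed 0.

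The share of CTLs with an Itga4 UMI was 7.47% in WT, 43.9% in KO and 34.5% in TG, and 1.78%, 14.9% and 15.3% when each cell was thinned to 1000 UMIs. WT was lowest both ways, while KO and TG did not keep their order at equal depth. MC38 or stromal cells, which should lack the gene, had it at 0 to 2.67 CPM at medians of 19337 to 30701 UMIs per cell, and the T cell levels stood above that. Outside the T cells KO was not the higher genotype: macrophages had 53.8, 45.8 and 32.5 CPM and dendritic cells 488, 273 and 502 CPM in WT, KO and TG, the last from 4 cells.

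Itgb7, the β7 chain, differed less and was abundant throughout. CTLs had 98.5 CPM in WT (90.5 to 107), 176 in KO (167 to 186) and 252 in TG (214 to 296), with log2 ratios to WT of 0.84 (0.70 to 0.99) and 1.36 (1.09 to 1.62). Foxp3- CD4 T cells had 223, 183 and 335 CPM, where KO did not stand apart from WT (-0.28, -0.66 to 0.09) and TG was higher (0.59, 0.22 to 0.97). Foxp3+ cells of the 3 genotypes lay between 565 and 660 CPM, within 1.17-fold of WT. The WT and KO orders thus differed by class for this chain, as a higher level in KO was seen in CTLs and not in CD4 T cells. MC38 or stromal cells had 130 to 155 CPM of this gene, and whether free RNA adds to the T cell values was not tested.

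Cells with UMIs of both chains of α4β7, the gut-homing integrin, were rare in WT CTLs and common in both other genotypes. They were 17 of 843 cells in WT (2.02%, exact interval 1.18 to 3.21), 293 of 1171 in KO (25.02%, 22.6 to 27.6) and 25 of 113 in TG (22.1%, 14.9 to 30.9). Thinned to 1000 UMIs per cell the shares were 0.238%, 2.14% and 3.60%. KO also had the highest share in Foxp3- CD4 T cells (26.1% against 5.21% in WT and 7.21% in TG) and in Foxp3+ cells (30.4% against 2.50% and 9.33%). MC38 or stromal cells gave 0%, 1.57% and 5.26% at several times the depth, the last being 1 of 19 cells. A cell without a UMI of a chain may still carry it, since a UMI is a sparse sample of the RNA.

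Pairing α4 with β1, as in the VCAM-1 receptor, gave 28.6% of KO and 23.01% of TG CTLs against 4.03% in WT, or 3.50%, 3.60% and 0.475% when thinned to 1000 UMIs. The surface pairing of the chains was not measured, and α4 with either β chain followed Itga4.

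Itgae, the αE chain of the E-cadherin receptor, lay on the other side in KO. CTLs had 30.3 CPM in WT (25.9 to 35.2), 13.8 in KO (11.4 to 16.7) and 116 in TG (90.5 to 147), with log2 ratios to WT of -1.13 (-1.49 to -0.78) and 1.94 (1.52 to 2.35). Foxp3- CD4 T cells had 16, 7 and 45 UMIs (36.4, 8.01 and 95.5 CPM), with log2 ratios of -2.18 (-3.71 to -0.82) and 1.39 (0.54 to 2.31). Foxp3+ cells, known for this chain, had 270.2 CPM in WT, 86.0 in KO and 340.3 in TG, with log2 ratios of -1.65 (-2.18 to -1.15) and 0.33 (0.04 to 0.63). The order KO below WT below TG therefore stood in all 3 classes, which no other gene of the set showed. In Foxp3- CD4 T cells it lay in the clusters that hold most Foxp3+ cells: 15 of the 16 WT, 6 of the 7 KO and 40 of the 45 TG UMIs came from cells there, which were 21.9% of WT, 6.67% of KO and 28.8% of TG cells of the class. Outside those clusters Itgae had 1, 1 and 5 UMIs. In CTLs the difference of KO from WT rested in part on WT clonotype 5: without the largest clonotype of each genotype WT had 22.3 CPM and KO 15.8 CPM, and the log2 ratio was -0.50. With each clonotype weighted equally it was -0.088. With hashtag calls at 80% of hashtag UMIs it was -0.35. In the CD4 classes these settings left it between -2.47 and -1.42.

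Foxp3+ cells with UMIs of both αE and β7 were 60 of 120 in WT, 16 of 79 in KO (20.3%, 12.04 to 30.8) and 74 of 150 in TG (49.3%), and thinned to 1000 UMIs 9.24%, 5.06% and 16.0%. In CTLs the shares were 6.05%, 2.82% and 17.7%, and thinned 0.594%, 0.598% and 2.70%, so that WT and KO CTLs differed in this share only at full depth. MC38 or stromal cells gave 1.84%, 3.15% and 10.53% at a median of 19337 to 30701 UMIs, the last being 2 of 19 cells, and 0% in each genotype when thinned. Per UMI, Itgae in KO CTLs (13.8 CPM) stood above that in KO MC38 or stromal cells (1.18 CPM).

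**Figure D2:**
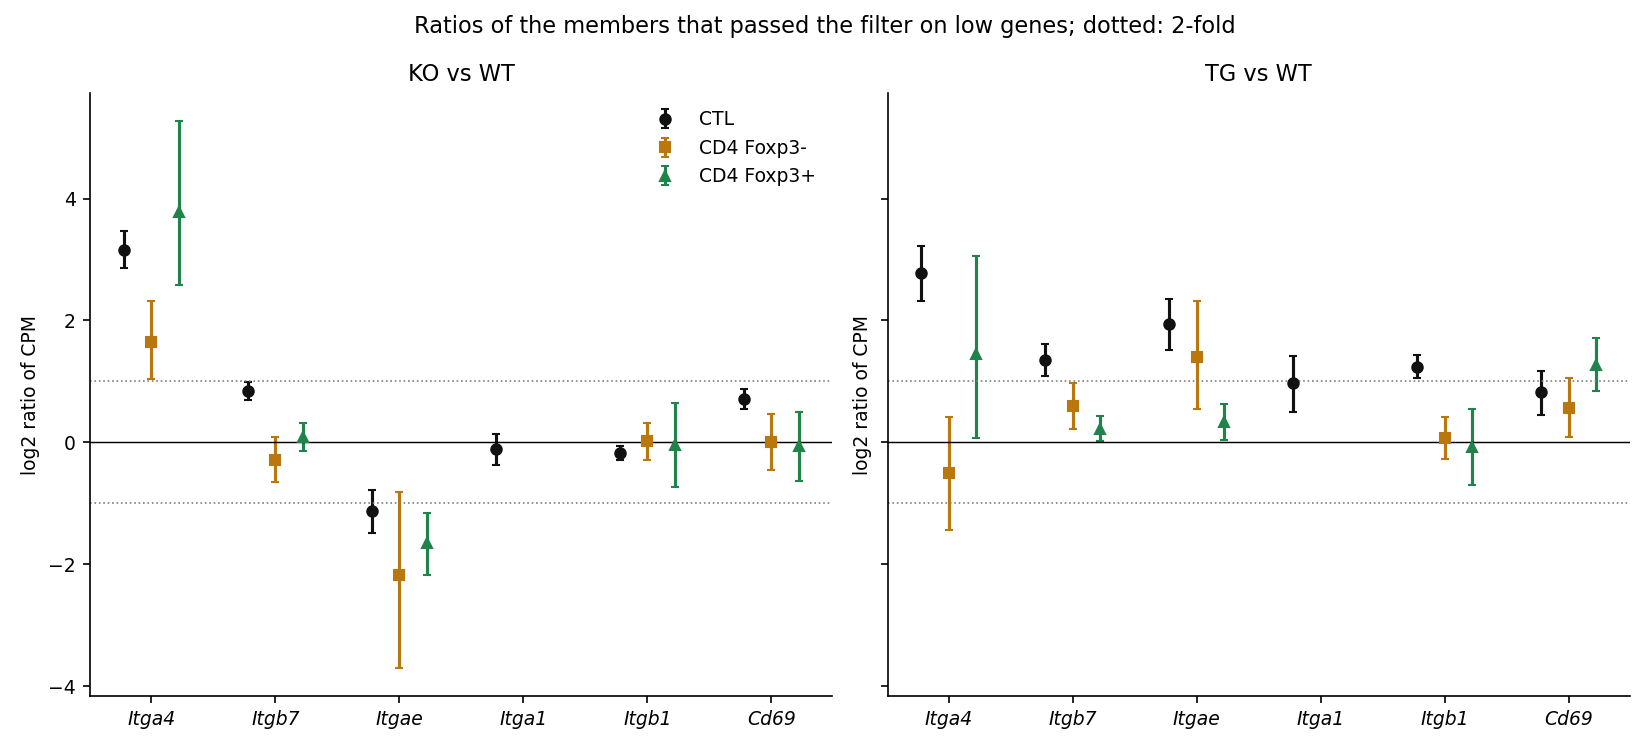
Log2 ratio of CPM to WT (y axis, linear) of KO (left) and TG (right) for the 6 genes other than Ccr9 (x axis); circles are CTLs, squares Foxp3- and triangles Foxp3+ CD4 T cells, lines exact 95% intervals for counting error, and dotted lines mark 2-fold. In KO Itga4 lies above and Itgae below 2-fold in each class, and Itgb1 stays near 0.

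Itga1, the α1 chain of the collagen receptor, was higher in CTLs than in CD4 T cells. CTLs had 41.5 CPM in WT, 38.3 in KO and 81.3 in TG, while the CD4 groups had 1 to 14 UMIs each (1.36 to 16.0 CPM) and macrophages 24.4 to 34.9 CPM. Against 1 UMI in WT, the 14 UMIs of KO Foxp3- cells gave a log2 ratio of 2.82 with an interval of 0.10 to 8.22. In CTLs KO did not stand apart from WT (log2 ratio -0.12, -0.37 to 0.14). TG was 0.97 above it (0.49 to 1.42), but after thinning each cell to 1000 UMIs the ratio was -0.43, from 4 of 111 TG cells with a UMI. The share of CTLs with both α1 and β1 was 13.3%, 11.6% and 22.1%, and thinned 1.31%, 1.11% and 0.901%.

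Itgb1, the β1 chain shared by the collagen and VCAM-1 receptors, had 200.1 CPM in WT, 177 in KO and 473 in TG CTLs. That was a log2 ratio of -0.18 (-0.29 to -0.06) for KO and 1.24 (1.05 to 1.43) for TG. In CD4 T cells the genotypes lay close together, with 309 to 325 CPM without Foxp3 and 68.1 to 71.7 CPM with it, and all 4 intervals of the ratios included 0. Those intervals reached from -0.74 to 0.64, so a difference of up to about that size is not shown to be absent. MC38 or stromal cells had 316 to 411 CPM of this gene.

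Cd69, the activation and retention gene, stood at 74.1 CPM in WT, 122 in KO and 131 in TG CTLs, with log2 ratios of 0.71 (0.55 to 0.88) and 0.82 (0.46 to 1.17). In CD4 T cells KO lay at the WT level, with 121 UMIs (138.4 CPM) against 61 (138.7 CPM) without Foxp3 and 100.3 against 105 CPM with it. TG Foxp3+ cells had 253 CPM, 2.41-fold above WT (1.27, 0.85 to 1.71). Of them 64.7% lay in the cluster led by Pcsk1 and Sgip1, which held 2.50% of WT Foxp3+ cells, and within the cluster led by Lrrc32 and Foxp3 the ratio was 1.498 (0.96 to 2.04). TG Foxp3- cells had 206 CPM (0.57, 0.09 to 1.06). Cd69 was the gene with the widest TG to WT difference among Foxp3+ cells that rested on more than 20 UMIs in each genotype.

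Read against all genes, the counts of members past 2-fold were as follows, with genes kept at 0.1 or more UMIs per cell in either group. For KO against WT, 2 of the 6 members kept in CTLs were past 2-fold (Itga4 higher, Itgae lower), where 2.62% of all 6600 genes kept were. The same 2 genes, of 5 kept, were past it in Foxp3- CD4 T cells, against 8.10% of all genes, and in Foxp3+ cells, against 9.16%. For TG against WT, 4 of 6 were past 2-fold in CTLs, all higher (Itga4, Itgb7, Itgae and Itgb1), against 10.4% of all genes. In Foxp3- CD4 T cells it was 1 of 5 (Itgae), against 10.2%, and in Foxp3+ cells 2 of 5 (Itga4 and Cd69), against 8.82%. The 2 comparisons share the WT cells. A member passed the filter by its level in either group, so a gene such as Itga4 in Foxp3+ cells, with 6 UMIs in WT, was kept through KO.

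Between the CD4 classes of 1 tumor, Foxp3+ cells had more αE and β7 and less β1 than Foxp3- cells in each genotype. Itgae was higher by log2 ratios of 2.89 in WT, 3.42 in KO and 1.83 in TG. For Itgb7 the ratios were 1.34, 1.72 and 0.98, and for Itgb1 -2.11, -2.17 and -2.25. These 3 genes kept the direction of their class difference under both changes of RARα. Itga4 was lower in Foxp3+ cells of WT (-2.51, -4.08 to -1.19), while in KO (-0.38, -0.81 to 0.04) and TG (-0.57, -1.55 to 0.42) the intervals included 0. Members past 2-fold were 4 of 5 in WT (Itga4, Itgb7, Itgae and Itgb1) against 16.1% of all genes, 3 of 5 in KO (Itgb7, Itgae and Itgb1) against 16.9%, and 2 of 5 in TG (Itgae and Itgb1) against 14.9%.

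CTLs of large and of single clonotypes differed in α4 in WT, and in KO the interval of the ratio included 0. A clonotype is the set of cells with the same TCR, and cells in clonotypes of 1, 2 to 9 and 10 or more were compared. WT CTLs had Itga4 at 56.0, 17.7 and 10.3 CPM with growing clonotype size, KO CTLs 167, 160.1 and 170 CPM. The log2 ratio of clonotypes of 10 or more to those of 1 was -2.45 (-3.17 to -1.73) in WT and 0.03 (-0.29 to 0.36) in KO, and -3.20 and -0.30 with each clonotype weighted equally. Itga4 was the only member of 6 past 2-fold in WT, against 7.53% of all genes. In KO it was Itgae alone, of 6 (37.9 to 11.4 CPM, -1.74, -2.51 to -0.91), against 5.63%. With cells thinned to 1000 UMIs the KO ratio of Itgae was -0.85, no longer past 2-fold, and that of Itga4 was 0.82.

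Within clonotypes of 1 cell the KO to WT ratio of Itga4 was accordingly smaller (1.58, 1.01 to 2.17) than within clonotypes of 10 or more (4.05, 3.54 to 4.60). These intervals do not cover the spread between clonotypes. Of the 33 WT Itga4 UMIs in clonotypes of 10 or more, 23 lay in WT clonotype 7. KO clonotypes of 10 or more CTLs ran from 0 to 450 CPM of Itga4. Whether the ratio differs between the sizes beyond that spread was not tested. Itgae showed 0.65 (-0.37 to 1.69) in clonotypes of 1, from 16 WT and 20 KO UMIs, and -1.73 (-2.23 to -1.24) in those of 10 or more. Of its 121 UMIs in WT CTLs of clonotypes of 10 or more, 52 lay in WT clonotype 5 alone. Over all CTLs the KO to WT ratio of Itgae was -0.088 with each clonotype weighted equally. Past 2-fold were 1 of 6 members in clonotypes of 1 (Itga4), against 11.5% of all genes, and 2 of 6 in those of 10 or more (Itga4 and Itgae), against 3.06%. TG CTLs, of which 81 lay in clonotypes of 1 cell and 13 in clonotypes of 2 to 9, had no clonotype of 10 or more. Compared with WT within clonotypes of 1, Itga4 was 0.86 higher (0.20 to 1.53) in place of 2.78 over all CTLs. Itgae (2.04), Itga1 (1.53) and Itgb7 (1.26) were the 3 of 6 members past 2-fold there, against 11.9% of all genes.

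**Figure D3:**
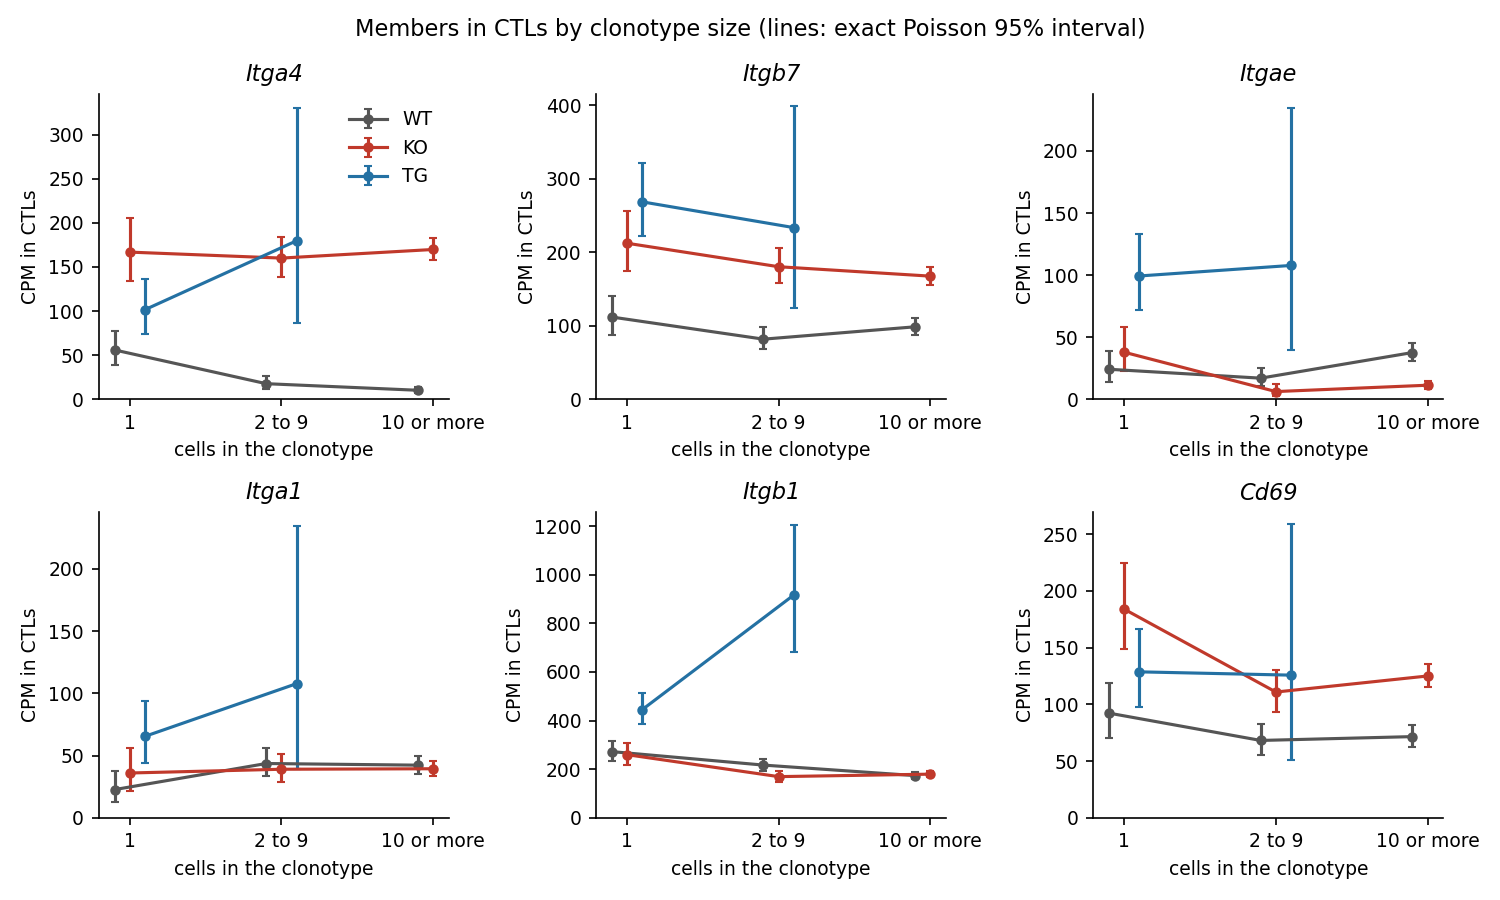
CPM of 6 genes in CTLs (y axis, linear, 1 panel per gene) by the number of cells in the clonotype (x axis: 1, 2 to 9, 10 or more) for WT (grey), KO (red) and TG (blue, no clonotype of 10 or more); points are CPM of summed UMIs and lines exact Poisson 95% intervals. Itga4 goes from 56.0 to 10.3 CPM in WT and stays between 160.1 and 170 CPM in KO.

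In CD4 T cells clonotype size went with αE and β7 in some groups and not in others. In WT Foxp3- cells Itgb7 stood at 412 CPM in clonotypes of 1 cell and 50.9 CPM in those of 2 or more, and Itgae had 11 and 0 UMIs. Past 2-fold there were 3 of 5 members (Itgb7, Itgae and Cd69, all lower), against 24.4% of all genes. WT Foxp3- cells of the cluster led by Il13 and Tnfsf8 had 53.5 CPM of Itgb7, and the part of clusters in this difference was not tested. In KO Foxp3+ cells Itgae stood at 149 CPM in clonotypes of 1 and 20.8 CPM in those of 2 or more (-2.84, -4.54 to -1.49). Those of 2 or more were 41 cells with 5 UMIs. Past 2-fold in KO Foxp3+ cells were 2 of 5 members (Itgae lower, Cd69 higher), against 20.7% of all genes. Itgae of Foxp3+ cells stood at 268 and 290.2 CPM in WT and 366 and 279 CPM in TG. Itgb7 was not lower in the larger clonotypes of TG Foxp3- cells (323 and 356 CPM), KO Foxp3+ cells (559.7 and 646 CPM) or TG Foxp3+ cells (609 and 689 CPM). It was lower, with overlapping intervals, in those of KO Foxp3- cells (236 and 170 CPM) and WT Foxp3+ cells (584 and 497 CPM).

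Single clonotypes, looked at after these values were seen, differed from each other far more than the genotype means show. Of the clonotypes with 10 or more CTLs, 19 were WT and 21 KO. In 12 of the 21 KO clonotypes Itga4 stood at 206 to 450 CPM, while 7 had no Itga4 UMI at all among 237 cells and 1221860 UMIs, which allows up to 2.46 CPM over them. The largest, KO clonotype 1 with 113 CTLs, had 265 UMIs (261 CPM, 231 to 295) in 88 of its cells, while clonotype 3 with 75 CTLs had 0 UMIs, as had clonotype 2 with 71. Clonotype 4 with 66 CTLs had 116 UMIs (247 CPM). Only clonotypes 14 and 31 lay between, with 10 UMIs (68.7 CPM) and 3 UMIs (30.7 CPM). Of the 19 WT clonotypes 9 had no Itga4 UMI, 9 had 1 or 2, and clonotype 7 had 23 UMIs in 16 of its 39 cells (74.0 CPM).

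No clonotype of 10 or more CTLs had more than 3 UMIs of both Itga4 and Itgae. In KO 13 had more than 3 Itga4 UMIs, 3 others more than 3 Itgae UMIs, and 5 neither. In WT 1 had more than 3 Itga4 UMIs, 6 others more than 3 Itgae UMIs, and 12 neither. With these numbers at most 1 clonotype could have had both in WT and at most 3 in KO, so the absence of overlap rests on few clonotypes. KO clonotypes 4 and 23, which had the same β CDR3, were counted separately. Whether the overlap was lower than expected from the separate numbers of each gene was not tested. KO clonotype 1 had 0 Itgae UMIs among 113 cells, whereas clonotype 3 had 21 (61.3 CPM) and clonotype 20 had 10 (117 CPM) with 0 of Itga4 each. WT clonotype 5, the largest of WT with 64 CTLs, had 52 Itgae UMIs (159 CPM) and 0 of Itga4, and held 30.6% of the Itgae UMIs of WT CTLs in 7.59% of the cells. Itgb7 was above 0 in each of these clonotypes, with 33.0 to 255 CPM over those of KO and 6.44 to 321 CPM over those of WT, where clonotype 7, the one with the most Itga4, was lowest.

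**Figure D4:**
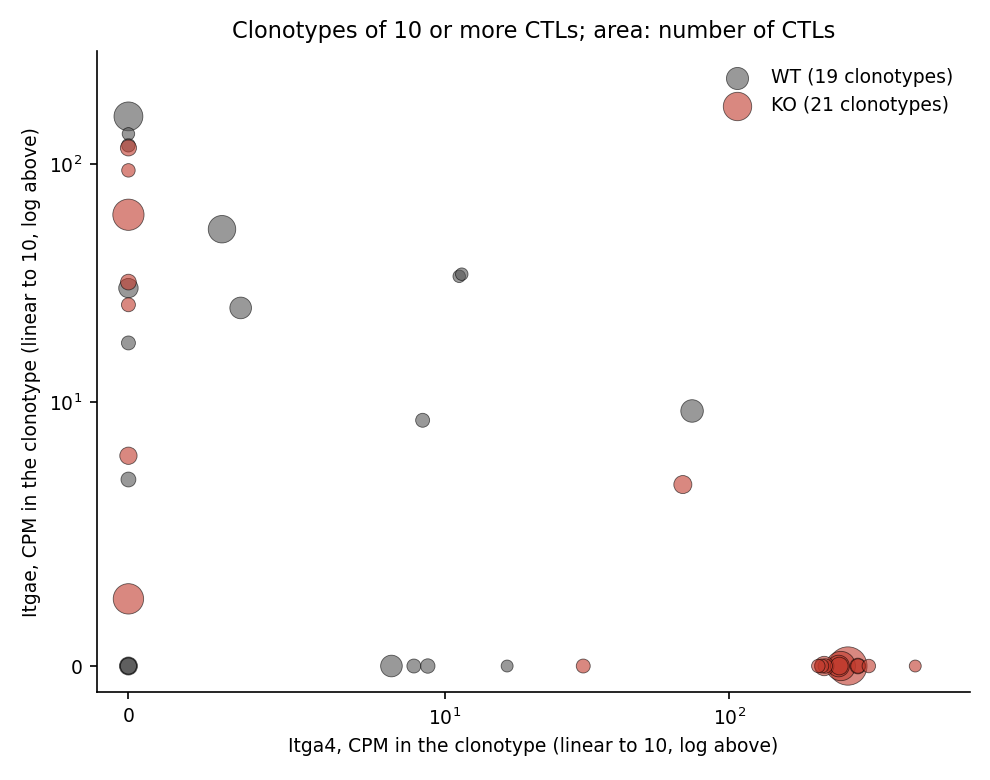
Itga4 (x axis) against Itgae (y axis) CPM in each clonotype of 10 or more CTLs, 19 of WT (grey) and 21 of KO (red); both axes are linear to 10 CPM and logarithmic above, and the area of a circle grows with its number of CTLs. Most clonotypes lie along 1 axis or at the origin, those off both axes have at most 3 UMIs of at least 1 of the 2 genes, and 12 KO clonotypes lie at 206 to 450 CPM of Itga4 with Itgae at 0. Whether the overlap of the 2 genes was lower than expected from the separate numbers of each was not tested.

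Over all CTLs a like count can be made by cell, in which the large clonotypes weigh most. In KO an Itgae UMI was found in 3 of 514 CTLs with an Itga4 UMI (0.584%, 0.121 to 1.70) and in 57 of 657 without one (8.68%, 6.64 to 11.1), and in WT in 1 of 63 (1.59%) and 76 of 780 (9.74%). Among cells of clonotypes of 1 it was 0 of 37 and 6 of 57 in KO and 1 of 20 and 4 of 102 in WT, with overlapping intervals in both, so no such difference was detectable there. The cells with Itga4 were the deeper ones, with medians of 7232 against 4808 UMIs in KO and 6925 against 5650 in WT. TG CTLs went the other way, with 11 of 39 (28.2%) and 13 of 74 (17.6%), with overlapping intervals. KO Foxp3+ cells carried both as well, with 9 of 29 (31.0%) and 11 of 50. Cells of a clonotype are not independent of each other, and the mice behind the clonotypes were not labelled, so that clonotype and mouse cannot be told apart.

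Rpl29 and Trim12a, 2 of the genes that set the KO line apart, did not split its clonotypes by Itga4. Trim12a, at 0 in all KO CTLs, could not have split them. Over the 21 clonotypes Rpl29 stood at 195 to 537 CPM, against 2691 to 3586 CPM over the 19 of WT, and Trim12a was at 0 UMIs in all 21. Rpl29 was at 255 to 367 CPM in the 7 clonotypes without Itga4. P2rx7, an ATP receptor that retinoic acid induces in T cells, had 86 UMIs in KO and 2 in WT CTLs. It thus set the KO cells apart too. Its 32 UMIs in the 21 KO clonotypes lay in 6 of the 12 with Itga4 at 206 CPM or more, and in none of the 7 without it. Of the 32, 22 lay in clonotype 1 alone. Art2b, which feeds the P2rx7 receptor through ADP-ribosylation, had 32 UMIs in KO and 0 in WT CTLs. Its 17 UMIs in the 21 KO clonotypes lay in 7 of the same 12 and in none of the 7. Whether differences between the lines bear on the Itga4 levels of the clonotypes was not tested.

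Some WT and KO clonotypes had alike TCRs, though no such pair had the same CDR3 in both chains. The CDR3, the TCR stretch that touches the peptide, is printed as sequenced for those shown. Clonotypes 8 and 25 of WT and 9 and 31 of KO used TRBV16 and TRBJ2-7 with a β CDR3 of 42 bases. The 2 of WT had the same β CDR3. That of KO clonotype 31 differed from it in 3 bases and is not printed. That of KO clonotype 9 differed from the WT one in 2 bases, which are in capitals:
WT clonotype 8 β: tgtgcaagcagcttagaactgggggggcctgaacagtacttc
KO clonotype 9 β: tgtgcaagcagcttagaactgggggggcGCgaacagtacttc
Their α chains used TRAJ7, joined to TRAV7D-2 in the first 3 below and to TRAV3-3 in clonotype 9, whose longer CDR3 was not aligned. The capital marks the base that differs from WT clonotype 8:
WT clonotype 8 α: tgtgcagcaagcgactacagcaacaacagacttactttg
WT clonotype 25 α: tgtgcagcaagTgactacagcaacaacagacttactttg
KO clonotype 31 α: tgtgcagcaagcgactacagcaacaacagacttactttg
KO clonotype 9 α: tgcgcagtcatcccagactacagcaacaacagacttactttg

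Itga4 stood at 8.32 CPM (2 UMIs) in WT clonotype 8 with 36 CTLs, 9.03 CPM (1 UMI) in WT clonotype 25 with 15 CTLs, and 30.7 CPM (3 UMIs, 6.33 to 89.7) in KO clonotype 31 with 15 CTLs. KO clonotype 9, with 36 CTLs and the other α chain, had 242 CPM (67 UMIs, 188 to 308). The 3 UMIs of clonotype 31 came from 1 cell, so its level is set against the others only as a value. None of the 4 had an Itgae UMI.

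Clonotypes 1, 3 and 34 of KO used TRBV16 as well and shared TRAV14N-3 and TRAJ22 in the α chain. Their β CDR3s are shown with the bases that differ from clonotype 1 in capitals:
KO clonotype 1 β: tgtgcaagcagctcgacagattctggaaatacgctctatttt
KO clonotype 3 β: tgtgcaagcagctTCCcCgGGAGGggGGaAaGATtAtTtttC
KO clonotype 34 β: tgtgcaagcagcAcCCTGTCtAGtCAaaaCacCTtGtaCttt
Clonotypes 1 and 34 had Itga4 at 261 and 309 CPM, and clonotype 3, whose α chain was read in 29 of its 75 cells, had 0 UMIs. The same V and J segments in the α chain therefore stood beside both extremes of Itga4 within 1 genotype. Clonotypes 4 and 23, with 247 and 283 CPM, had the same β CDR3, and no α chain was read in clonotype 23.

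Genotypes filled the T cell clusters in different shares, so each gene was also read within clusters, which are called by their leading genes. The cluster led by S1pr1 and Tcf7 held 52.2% of TG CTLs, 9.85% of WT and 3.93% of KO, that led by Gzmg and Gzmf 39.7% of WT and 9.22% of KO, and that led by Serpine2 and Fxyd7 26.5% of KO and 1.42% of WT. Itga4 was above WT in KO CTLs of all 6 clusters with 30 or more CTLs of both. The log2 ratio was 2.80 in the cluster led by Xcl1 and Ifng, 3.05 in that led by Gzmg, 2.51 in that led by Ifi213 and Ifit1, 3.76 in that led by Ccl5 and Gzma and 3.96 in that led by histone genes. It was lowest in the cluster led by S1pr1 and Tcf7 (1.03, 0.24 to 1.81), where WT itself had its highest level (85.7 CPM).

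In that same cluster TG CTLs had 71.8 CPM of Itga4, no more than WT (log2 ratio -0.26, -1.08 to 0.56), so the TG level over all CTLs was not seen within the one cluster that could be compared. Itgae, by contrast, stood at 123 CPM in TG and 11.4 CPM (4 UMIs) in WT there (3.43, 1.97 to 5.37). Itga1 was at 66.0 against 5.71 CPM, or 23 against 2 UMIs (3.53, 1.51 to 6.66). Itgb7 was higher as well (0.72, 0.20 to 1.24), and Cd69 was lower (-1.20, -1.97 to -0.47), opposite to its ratio over all CTLs. Over all its cells the S1pr1 and Tcf7 cluster had the γδ T cell genes Trdc and Tcrg-C1 at 17.2 CPM. That was the most of the T cell clusters, with the cluster led by Ccl5 next at 3.24 CPM. The part of these genes' cells in the TG ratios was not tested. Itgae of KO lay below WT by -1.60 (-2.14 to -1.09) in the cluster led by Ccl5, which held 101 of the 170 Itgae UMIs of WT CTLs. It was also lower in the Ifi213 (-1.30, -2.29 to -0.26) and histone clusters (-2.22, -4.74 to -0.21, 3 KO UMIs). In the clusters led by Xcl1 (-0.94), Gzmg (0.15, -1.25 to 1.41) and S1pr1 (-0.93, 1 KO UMI) the interval included 0. The KO ratio of Itgb7 ran from -0.06 (Ccl5 cluster) to 1.29 (Gzmg cluster). That of Itgb1 ran from -0.52 (Xcl1 cluster) to 0.82 (Ifi213 cluster).

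Of the CD4 T cells without Foxp3, the cluster led by Il13 and Tnfsf8 could be compared. Itga4 stood there at 28.8 CPM in WT, 166 in KO (2.53, 1.43 to 3.88) and 14.3 in TG (3 UMIs). Foxp3+ cells of the cluster led by Lrrc32 and Foxp3 had 9.27 CPM in WT, 111 in KO (3.59, 2.26 to 5.28) and 20.9 in TG (4 UMIs). The KO difference of Itga4 thus also stood within clusters of both CD4 classes.

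**Figure D5:**
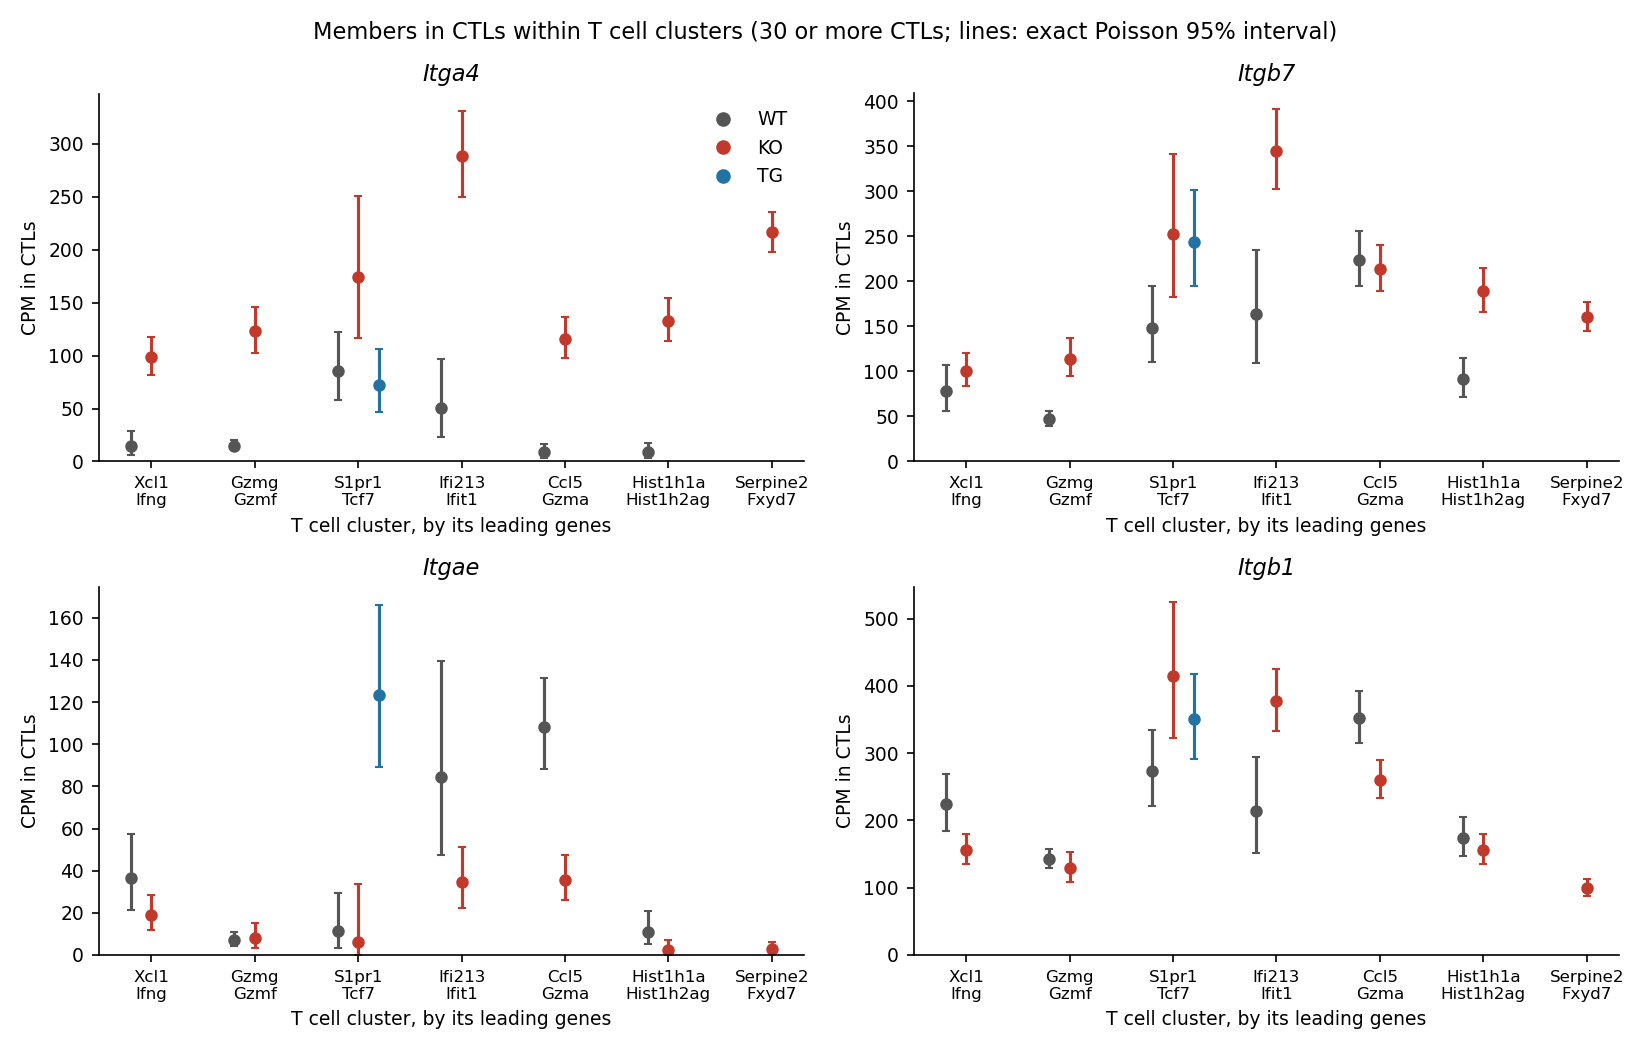
CPM in CTLs (y axis, linear) of Itga4, Itgb7, Itgae and Itgb1 within each T cell cluster (x axis, by its 2 leading genes) with 30 or more CTLs of a genotype, for WT (grey), KO (red) and TG (blue); points are CPM and lines exact Poisson 95% intervals. Itga4 of KO lies above WT in each shared cluster, and TG lies at the WT level in the S1pr1 and Tcf7 cluster, where its Itgae is 123 against 11.4 CPM.

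Related genes were taken from lists made with earlier results of these data known, and their counts past 2-fold in CTLs stand beside 2.62% of all genes for KO and 10.4% for TG. The other integrins, 17 genes, gave 4 that passed the filter in KO against WT CTLs and none past 2-fold, with a median log2 ratio of -0.16 against 0.02 over all genes. With at least 20 UMIs in either genotype, below that filter, Itgam (αM of the complement receptor) was higher (28 against 4 UMIs, 2.28, 0.76 to 4.25) and Itga3 (α3 of a laminin receptor) lower (12 against 31 UMIs, -1.90, -2.99 to -0.90). In TG CTLs 5 passed, with a median of -0.64 against 0.01 over all genes. Itgax (αX) was higher there at 1.11 and Itgb3 (β3) lower at -1.97 (-2.93 to -1.15). No other integrin that passed the filter in KO CTLs came near the Itga4 ratio of 3.16.

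Known targets of retinoic acid, 15 genes, went in both directions in KO CTLs. There 3 passed the filter, with Gfi1 higher (1.25) and Nt5e lower (-1.25, -1.67 to -0.85) and a median of 0.69. Of those with 20 or more UMIs, P2rx7 was higher at 86 against 2 UMIs (4.90, 3.002 to 7.97), Hic1, a repressor needed by gut T cells, at 93 against 8 UMIs (3.01, 1.97 to 4.27) and Asb2 at 39 against 8 (1.76, 0.64 to 3.07), and Art2b had 32 UMIs against 0 in WT, at least 7.40-fold higher with 3 UMIs set as the WT floor. In TG CTLs 3 passed with a median of 2.11 and none was lower past 2-fold, and Nt5e (CD73) was higher at 103 against 23.9 CPM (2.11, 1.65 to 2.55), and so was Dhrs3, a retinaldehyde reductase, at 12 against 6 UMIs (4.22, 2.69 to 5.92). TG CTLs had 1 UMI of P2rx7 and 0 of Art2b.

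Of 12 residence genes 9 passed the filter in KO CTLs with a median of 0.23, and Prdm1, the gene of Blimp-1, was higher at 38.1 against 10.3 CPM (1.88, 1.47 to 2.31) as was Gzmb (1.17). Ahr, at 34 against 69 UMIs (-1.55, -2.19 to -0.94), and Zfp683 (Hobit), at 30 against 51 UMIs (-1.29, -1.99 to -0.61), were lower. In TG CTLs 8 passed with a median of 0.24, Rgs1 being higher (1.40) and Cxcr6 (-1.32) and Bhlhe40 (-1.76) lower. Of 12 circulation genes 10 passed in KO CTLs, with Eomes higher (1.44), Ccr7 lower (-1.15) and a median of 0.17. In TG CTLs 11 passed with a median of 0.85, and 5 were higher, led by Klf3 (2.74, 2.27 to 3.20) and Tcf7 (2.12, 1.77 to 2.47), and 2 lower (Ccr7 and Cx3cr1). The cluster led by S1pr1 and Tcf7 held 52.2% of TG CTLs, and its part in these counts was not tested.

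Ligand genes of these receptors, 12 in all, were read in CTLs too, where 2 passed the filter in KO and none was past 2-fold. In TG 3 passed and Cdh1, E-cadherin itself, was higher at 17 against 21 UMIs in far fewer cells (28.2 against 3.74 CPM, 2.91, 1.90 to 3.91).

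Over the 9 groups of class and genotype, which share 1 library, the members did not form 1 pattern. Itgae went with Itgb7 (Pearson r 0.81 of log2 of CPM plus 10, n = 9 groups) and against Itga4 (-0.59), and Itgb1 went against Itgb7 (-0.67). Of 8692 genes with 100 or more UMIs, the patterns most like Itga4 were those of Kdm5a (0.87), Gadd45g (0.86) and Gm4316 (0.86). Itgb7 was most like Asxl1 (0.99), Trp53inp1 (0.97) and Glrx (0.96), Itgae like Cep162 (0.97), Zbtb25 (0.96) and Adam9 (0.95), and Itga1 like Adsl (0.98) and Ska1 (0.97). Itgb1 was most like Tcf7 (0.99), Khdc4 (0.96) and Usp15 (0.96), and Cd69 like Hilpda (0.91), Ywhaz (0.90) and Bsdc1 (0.89). Ccr9 had too few UMIs to be placed.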

How the data were processed

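The authors deposited raw UMI counts per gene and barcode, with hashtag counts, and TCR contig tables, made with Cell Ranger 6.1.0 per their processing notes, while the matrix header names Cell Ranger 4, and the mm10 (GRCm38) build. No annotation of cells was used. The contigs were deposited in 2 formats with the same content (15951 contigs), and 1 was used.

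Cells were called from the 730308 barcodes with a test against ambient RNA (UMI minimum 500), genotypes with HTODemux (Seurat 5.3.0, R 4.3.3), which left out 426 cells as doublets and 234 without a hashtag. About 248.5 doublets within a genotype (5.05% of those kept) would remain. Counts were clustered with scanpy 1.11.5 in Python 3.11.15 (30 components, resolution 1), and T cell clusters were those in which over 50% of cells had a clonotype. Classes, list genes and markers followed fixed gates and lists. The genes and lists were chosen with earlier results of these data known. UMIs were summed per class and genotype. Ratios had exact binomial intervals (scipy 1.17.1), shares Clopper-Pearson intervals, all at 95%. PCR copies were removed through UMIs. A count of 0 was bounded at 3 UMIs. Named were the 7 genes everywhere, list genes past 2-fold in CTLs with 20 or more UMIs, the 3 genes most alike over 9 groups, and Rara, except for some items that are not reported here. List genes named beside a count (such as Gfi1 and Dhrs3) were chosen after their values were seen. Trim12a, Rpl29, P2rx7 and Art2b by clonotype, the single clonotypes and the alike TCRs were looked at after values were seen. Scripts were tested on simulated data.

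Alternatives were another T cell definition or CD8 gate, CPM without mitochondrial, ribosomal protein and TCR genes, cells thinned to 1000 UMIs, equal weights for cells or clonotypes, leaving out the largest clonotypes or the Gzmf cluster, a mitochondrial filter of 10%, hashtag calls at 80% and no filter on low genes.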

Additional observations from a re-analysis of the deposited data

How the results depend on the processing

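Of 544 values under the alternatives 477 stayed within the interval of the reported value or, for counts of genes, near the reported count, 65 moved more and 2 reversed. Values are log2 ratios to WT in CTLs unless a count of genes past 2-fold is named, and the cause was not tested. With each clonotype weighted equally, KO gave Itga4 1.62, Itgae -0.088 and Itga1 0.19, TG gave Itga4 1.27, Itgae 1.35, Itga1 1.49, Itgb1 0.68 and Cd69 0.28, Cd69 of TG reversed to -0.16 in Foxp3- CD4 T cells, and the counts were 1 for KO CTLs and 0 for TG in both CD4 classes. With each cell weighted equally, Itgb7 was 0.60 in KO, and Itgae 0.84, Itgb1 0.93 and Cd69 0.41 in TG. Without the Gzmf cluster, KO gave Itgb7 0.34, Itgae -1.82, Itgb1 -0.46 and Cd69 0.22, and TG gave Itgb7 0.81, Itgae 1.19, Itgb1 0.87 and Cd69 0.19. Hashtag calls at 80%, which kept 1042 of 1927 WT, 2102 of 2103 KO and 828 of 895 TG cells, gave Itgb7 1.02, Itgae -0.35, Itgb1 -0.033 and Cd69 0.93 in KO and Itgae 2.70 in TG. Thinning gave Itga1 -0.37, Itgb1 -0.31 and Cd69 0.54 in KO, Itga4 3.30, Itgb7 1.65 and Itgb1 0.996 in TG, reversed Itga1 of TG to -0.43, and gave counts of 1 in KO CTLs, KO Foxp3- and TG Foxp3+ CD4 T cells. Without the largest clonotype of each genotype, Itgae was -0.50 in KO and 2.38 in TG, and the KO CTL count was 1. The gate on Cd8a or Cd8b1 gave Itgb1 0.94 in TG, and no filter on low genes gave a count of 2 for TG Foxp3- CD4 T cells. No paired analysis was possible because each genotype was 1 sample.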
